A study of Mus musculus with 2 samples.

Results

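The 10 genes described here encode enzymes that start, extend or sulfate chondroitin sulfate and keratan sulfate chains, or make the sulfate donor for them. They were taken by symbol (Xylt1, Csgalnact1, Csgalnact2, Chsy1, Chst11, Chst12, Chst3, Chst1, Chst5 and Papss2), and all 10 were found once each among the 32285 features of 2 single-cell libraries. One library held knee joint cartilage cells of WT mice after DMM, surgery that destabilises the medial meniscus and is followed by osteoarthritis, and the other held such cells of WT mice after sham surgery. Each library pooled 3 mice, and cells had been sorted as alive (Calcein AM positive, DAPI negative) and negative for CD45, Ter119 and CD31. Age and time after surgery are not given in the sources used here. With 1 library per group there is no spread between samples, so DMM and sham are set side by side without a test, and the 95% intervals in brackets hold the error of counting UMIs but no variation from mouse to mouse.

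Chondroitin sulfate grows on a serine of a core protein such as aggrecan: a xylosyltransferase adds the first sugar, a short linker follows, an N-acetylgalactosamine transferase commits the chain to chondroitin, and a polymerase lengthens it. Sulfotransferases then place sulfate on carbon 4 or carbon 6 of the N-acetylgalactosamine, or on the sugars of keratan sulfate, using a donor made from ATP and inorganic sulfate. The charged chains hold water in cartilage, and the balance of 4-sulfated and 6-sulfated chondroitin is known to differ with depth and age of the tissue.

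Chst3 and Csgalnact2 were called higher below in cells with superficial zone markers, and Chst11 and Papss2 in chondrocyte-like cells. Because of these opposite directions between cell classes, the promoters of these 4 genes are shown. Each is the 250 bases before a RefSeq start that lies outside the annotated gene, 5′ to 3′ on the strand of the gene, in GRCm38.p6. Capitals mark the GC box GGGCGG on either strand. Chst3 was read from chr10:60219261-60219510 on the minus strand, Csgalnact2 from chr6:118139141-118139390 on the minus strand, Chst11 from chr10:82985247-82985496 on the plus strand and Papss2 from chr19:32595465-32595714 on the plus strand.
Chst3: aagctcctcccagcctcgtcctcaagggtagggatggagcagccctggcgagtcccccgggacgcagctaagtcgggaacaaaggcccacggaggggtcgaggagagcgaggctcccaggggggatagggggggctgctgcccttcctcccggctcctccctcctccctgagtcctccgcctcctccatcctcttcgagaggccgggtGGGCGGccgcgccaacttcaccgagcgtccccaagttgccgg
Csgalnact2: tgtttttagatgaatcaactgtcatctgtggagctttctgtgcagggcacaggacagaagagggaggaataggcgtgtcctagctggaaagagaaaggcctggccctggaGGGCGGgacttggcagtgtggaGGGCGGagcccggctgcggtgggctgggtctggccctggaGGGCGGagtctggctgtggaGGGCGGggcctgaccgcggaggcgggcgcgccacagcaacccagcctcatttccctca
Chst11: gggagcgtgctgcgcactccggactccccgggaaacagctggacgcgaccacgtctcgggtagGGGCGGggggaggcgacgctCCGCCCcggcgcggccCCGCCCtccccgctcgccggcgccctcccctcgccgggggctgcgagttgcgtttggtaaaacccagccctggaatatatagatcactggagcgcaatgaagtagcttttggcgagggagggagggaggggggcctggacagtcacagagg
Papss2: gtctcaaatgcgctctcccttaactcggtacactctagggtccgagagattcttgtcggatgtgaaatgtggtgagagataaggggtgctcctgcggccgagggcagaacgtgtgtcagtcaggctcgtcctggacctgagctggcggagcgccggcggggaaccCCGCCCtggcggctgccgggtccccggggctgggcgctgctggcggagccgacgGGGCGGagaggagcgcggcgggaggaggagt

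The Chst3 window held 1 GC box, Csgalnact2 4, Chst11 3 and Papss2 2, and 32.7% of 32851 promoter windows of that length held at least 1. The windows were 69.6% (Chst3), 64% (Csgalnact2), 70% (Chst11) and 67.6% (Papss2) G or C, against a median of 52.4% over all windows. None of these 4 windows held the SOX core AACAAT (9.42% of all windows), the ETS core CGGAAG (13.6%) or the TATA box TATAAA (12.4%) on either strand. Csgalnact2 and Papss2 each have a further RefSeq start within the gene, and its window held no GC box in either. The further window of Csgalnact2 (chr6:118138831-118139080) held none of the other motifs, and that of Papss2 (chr19:32619755-32620004, 43.2% G or C) held 1 SOX core.

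The DMM library held 97346999 UMIs in 11076 barcodes and the sham library 106799078 UMIs in 11362 barcodes, and 24 barcodes occurred in both. After filters 9529 cells remained in each library, with medians of 7859 UMIs per cell in DMM and 8064 in sham, and 8360 DMM and 7572 sham cells fell in connective tissue clusters. Although the labels call the sorted cells superficial, the markers placed only 729 DMM and 922 sham cells in a superficial zone class. That class was led by Casr, Moxd1, Chst3, Gimap6 and Erg, and its 8 superficial markers summed to 117689 CPM (UMI counts scaled to the total of the class in that library) in DMM and 91222 CPM in sham. Chondrocyte-like cells, with Col2a1, Acan and Matn3 among the markers, numbered 886 in DMM and 1124 in sham, and their 12 markers summed to 55944 CPM in DMM and 59143 CPM in sham. Hypertrophic-like cells led by Ihh, Nrgn and Tnni2 numbered 321 in DMM and 432 in sham, and fibroblast-like cells led by Ccl7 or Dpp4 and Pi16 numbered 1341 in DMM and 1314 in sham.

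A pair of clusters stayed unnamed and is given apart. The first, led by Serpina1e, Chst5, Hmga2, Inhba and Col10a1 (974 DMM and 695 sham cells), scored highest for superficial markers and held 62970 CPM of Prg4, the lubricin of the joint surface, in DMM and 64829 CPM in sham. It also held Col10a1, a collagen that marks hypertrophy, at 2666 CPM in DMM and 2087 CPM in sham, above the 1179 CPM in DMM and 1963 CPM in sham of hypertrophic-like cells. The second, led by Pcp4, Rgs6 and Luzp2 (229 DMM and 379 sham cells), scored 0.737 for chondrocyte markers, just under the limit of 0.75. Below, the superficial-like class and the Serpina1e cluster are called the surface clusters. Endothelial markers summed to at most 7.67 CPM in any of the 6 classes. Despite the sort against Ter119, 887 DMM and 1487 sham cells were erythroid-like. They are used below to gauge free RNA for genes other than Chsy1 and Chst11. In the largest of their clusters (405 DMM and 794 sham cells), markers of cycling cells had a mean log2 fold of 3.83. Erythroid markers differed between libraries, with 1010 CPM in DMM and 3208 CPM in sham among superficial-like cells, 566 CPM in DMM and 2167 CPM in sham among hypertrophic-like cells and 749 CPM in DMM and 548 CPM in sham among chondrocyte-like cells. The part of such RNA in the ratios below was not tested.

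The enzyme genes fell into separate patterns over the classes. Xylt1, Chst11 and Papss2 were highest in chondrocyte-like cells and the Pcp4 cluster and at intermediate to low levels in the surface clusters. Chst3 was highest in superficial-like cells, and Chst1 and Chst5 in the Serpina1e cluster. Csgalnact2 and Chst12 were higher in both surface clusters than in the other classes. Csgalnact1 spanned superficial-like cells, chondrocyte-like cells and the Pcp4 cluster, and Chsy1 varied least.

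**Figure D1:**
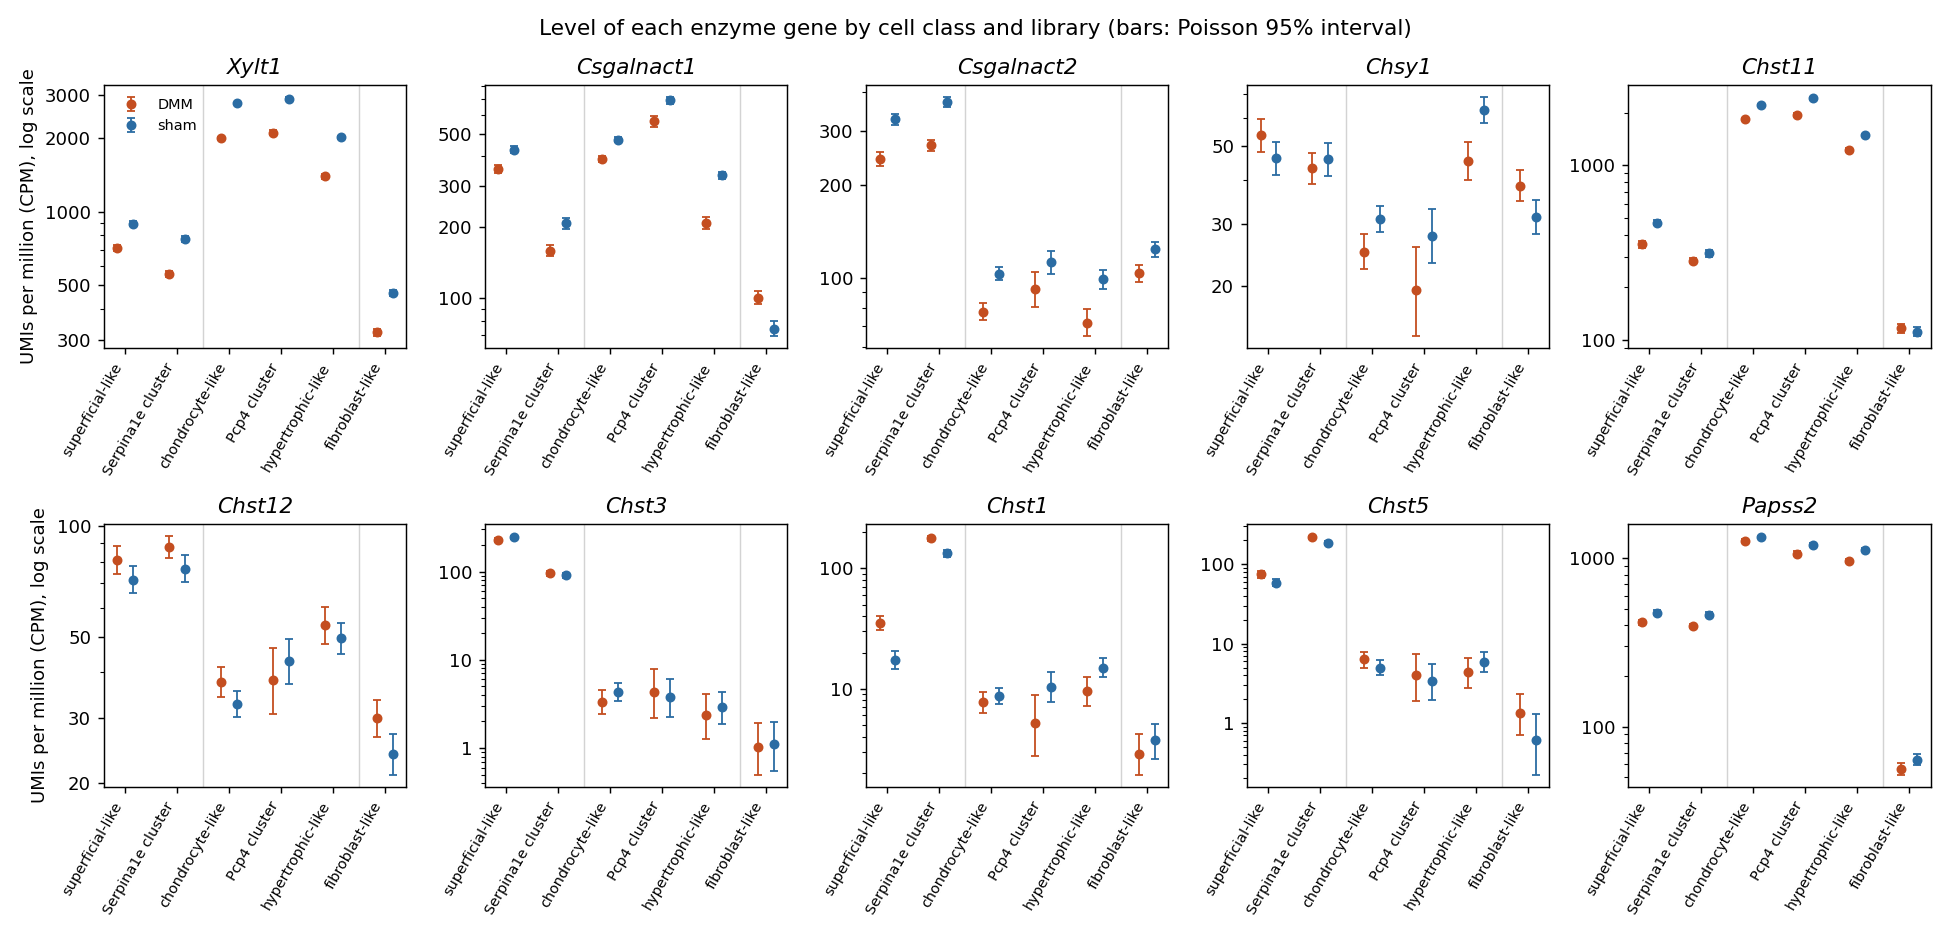
Level of each of the 10 enzyme genes, in CPM on a log axis, in 6 cell classes, with DMM left of sham. Points are sums over the cells of a class in 1 library and bars Poisson 95% intervals. Chst3 stands at 226 CPM in DMM and 244 CPM in sham among superficial-like cells and under 5 CPM in chondrocyte-like, Pcp4, hypertrophic-like and fibroblast-like cells.

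Xylt1, on chromosome 7 (GRCm38 positions 117380979 to 117673580), encodes xylosyltransferase 1, which attaches the first xylose of the chain to the core protein. In chondrocyte-like cells it stood at 1991 CPM in DMM and 2766 CPM in sham, and in the Pcp4 cluster at 2103 CPM in DMM and 2893 CPM in sham. Hypertrophic-like cells had 1393 CPM in DMM and 2014 CPM in sham. Superficial-like cells had 708 CPM in DMM and 891 CPM in sham, the Serpina1e cluster 557 CPM in DMM and 772 CPM in sham, and fibroblast-like cells 321 CPM in DMM and 466 CPM in sham. The order of the 6 classes was the same in both libraries, and no neighbours in it overlapped in their intervals. The ratio of superficial-like over chondrocyte-like cells was 0.356 [0.344, 0.367] in DMM and 0.322 [0.314, 0.330] in sham.

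Csgalnact1 and Csgalnact2 encode the transferases that add the first N-acetylgalactosamine and so begin a chondroitin chain. Csgalnact1 (chromosome 8, 68356781 to 68735146) had 563 CPM in DMM and 692 CPM in sham in the Pcp4 cluster, 391 CPM in DMM and 472 CPM in sham in chondrocyte-like cells and 354 CPM in DMM and 428 CPM in sham in superficial-like cells. The Serpina1e cluster was lower, with 159 CPM in DMM and 208 CPM in sham, and fibroblast-like cells had 101 CPM in DMM and 74.2 CPM in sham. Between the surface clusters, the Serpina1e cluster held 0.450 [0.421, 0.481] of the superficial-like level in DMM and 0.486 [0.457, 0.517] in sham. Csgalnact2 ran the other way between the surface clusters and chondrocyte-like cells. It had 269 CPM in DMM and 372 CPM in sham in the Serpina1e cluster and 243 CPM in DMM and 327 CPM in sham in superficial-like cells. Chondrocyte-like cells had 78.0 CPM in DMM and 104 CPM in sham, and hypertrophic-like cells 71.9 CPM in DMM and 99.3 CPM in sham. The intervals of fibroblast-like cells (104 CPM in DMM, 124 CPM in sham) and the Pcp4 cluster (92.5 CPM in DMM, 113 CPM in sham) overlapped in each library. Superficial-like over chondrocyte-like cells gave a Csgalnact2 ratio of 3.12 [2.87, 3.39] in DMM and 3.16 [2.97, 3.36] in sham, and a Csgalnact1 ratio of 0.907 [0.861, 0.954] in DMM and 0.907 [0.870, 0.945] in sham.

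Chsy1 (chromosome 7, 66109515 to 66173798) encodes a chondroitin synthase that adds the alternating sugars of the growing chain. Its level was 53.6 CPM in DMM and 46.2 CPM in sham among superficial-like cells, 45.3 CPM in DMM and 63.2 CPM in sham among hypertrophic-like cells and 25.0 CPM in DMM and 31.0 CPM in sham among chondrocyte-like cells. The highest class was the superficial-like one in DMM and the hypertrophic-like one in sham, and most neighbours in the order overlapped. Erythroid-like cells, used to gauge free RNA for other genes, had 25.7 CPM in DMM and 34.6 CPM in sham. The chondrocyte-like level did not exceed this. A Chsy1 UMI was found in 21.6% of erythroid-like cells in DMM and 23.8% in sham. Xylt1, far higher than Chsy1 in chondrocyte-like cells, had 30.6 CPM in DMM and 39.1 CPM in sham in erythroid-like cells. These cells are therefore not read as background for Chsy1, and whether they carry it themselves was not tested. Chsy1 overlaps Gm26827 on the opposite strand, to which 1511 UMIs were assigned in all. Whether counting used strand, or included introns, is not given in the sources used here.

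Chst11 and Chst12 encode chondroitin 4-O-sulfotransferases. Between the surface clusters and chondrocyte-like cells they ran in opposite directions, while both were lowest in fibroblast-like cells. Chst11 (chromosome 10, 82985498 to 83195900) had 1942 CPM in DMM and 2418 CPM in sham in the Pcp4 cluster, 1830 CPM in DMM and 2227 CPM in sham in chondrocyte-like cells and 1222 CPM in DMM and 1493 CPM in sham in hypertrophic-like cells. Superficial-like cells had 353 CPM in DMM and 468 CPM in sham, and the Serpina1e cluster 285 CPM in DMM and 313 CPM in sham. The lowest level was in fibroblast-like cells, with 117 CPM in DMM and 112 CPM in sham. Superficial-like cells thus held 0.193 [0.184, 0.201] of the chondrocyte-like level in DMM and 0.210 [0.203, 0.218] in sham. Erythroid-like cells held Chst11 at 102 CPM in DMM and 133 CPM in sham, with a UMI in 53.8% of cells in DMM and 56.1% in sham. Whether they carry Chst11 themselves was not tested, and they are not read as background for this gene. Chst12 (chromosome 5, 140505550 to 140525724) had 87.8 CPM in DMM and 76.6 CPM in sham in the Serpina1e cluster and 80.8 CPM in DMM and 71.5 CPM in sham in superficial-like cells, with overlapping intervals. Chondrocyte-like cells had 37.7 CPM in DMM and 32.8 CPM in sham and fibroblast-like cells 30.1 CPM in DMM and 24.0 CPM in sham, while erythroid-like cells had 5.05 CPM in DMM and 2.16 CPM in sham.

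Chst3 (chromosome 10, 60181532 to 60219260, minus strand) encodes chondroitin 6-O-sulfotransferase 1, loss of which causes a skeletal dysplasia in humans. It had 226 CPM in DMM and 244 CPM in sham among superficial-like cells and 96.2 CPM in DMM and 90.2 CPM in sham in the Serpina1e cluster. Chondrocyte-like cells had 3.36 CPM in DMM and 4.31 CPM in sham, hypertrophic-like cells 2.37 CPM in DMM and 2.90 CPM in sham and fibroblast-like cells 1.03 CPM in DMM and 1.11 CPM in sham. Superficial-like over chondrocyte-like cells gave a ratio of 67.1 [49.2, 93.9] in DMM and 56.6 [45.0, 72.1] in sham, the widest difference between these classes among the 10 genes. The chondrocyte-like level rested on 41 UMIs in DMM and 76 in sham. Erythroid-like cells held Chst3 at 1.39 CPM in DMM and 1.87 CPM in sham. The part of free RNA in the chondrocyte-like level, and so in the size of this ratio, was not tested. The 4 classes other than the surface clusters overlapped with their neighbours in each library. A UMI of Chst3 was found in 70.5% [67.1, 73.8] of superficial-like cells in DMM and 70.1% [67.0, 73.0] in sham, at medians of 7347 UMIs per cell in DMM and 7144 in sham. In erythroid-like cells, at medians of 9486 UMIs in DMM and 8150 in sham, the share was 0.789% [0.318, 1.62] in DMM and 1.08% [0.616, 1.74] in sham. Fibroblast-like cells lay below it, at 0.746% in DMM and 0.609% in sham, which is read as background and not as expression.

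The number of Chst3 UMIs per Chst11 UMI sets the 6-O-sulfotransferase gene against the 4-O-sulfotransferase gene within the same cells. UMIs of the 3′ assay were not divided by length, so the value is compared over classes only. It was 0.640 [0.598, 0.685] in DMM and 0.521 [0.492, 0.551] in sham among superficial-like cells, and 0.338 [0.313, 0.365] in DMM and 0.288 [0.264, 0.315] in sham in the Serpina1e cluster. Chondrocyte-like cells gave 0.00184 [0.00132, 0.00249] in DMM and 0.00194 [0.00152, 0.00242] in sham, on 41 and 76 Chst3 UMIs. Fibroblast-like cells gave 0.00887 in DMM and 0.00992 in sham, on 10 and 11 Chst3 UMIs at background level. In the surface clusters Chst3 was higher and Chst11 lower than in chondrocyte-like cells. The higher value of superficial-like cells in DMM went with Chst11 at 0.753 [0.713, 0.795] of sham and Chst3 at 0.926 [0.862, 0.993] of sham. Chst11 spans 210 kb and Chst3 37.7 kb, and long genes were lower in DMM, as given below. In these cells the log2 ratios were -0.41 for Chst11 and -0.11 for Chst3. With the trend on gene span removed they were 0.07 and 0.17. The part of gene span in the Chst3 per Chst11 values was not tested.

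**Figure D2:**
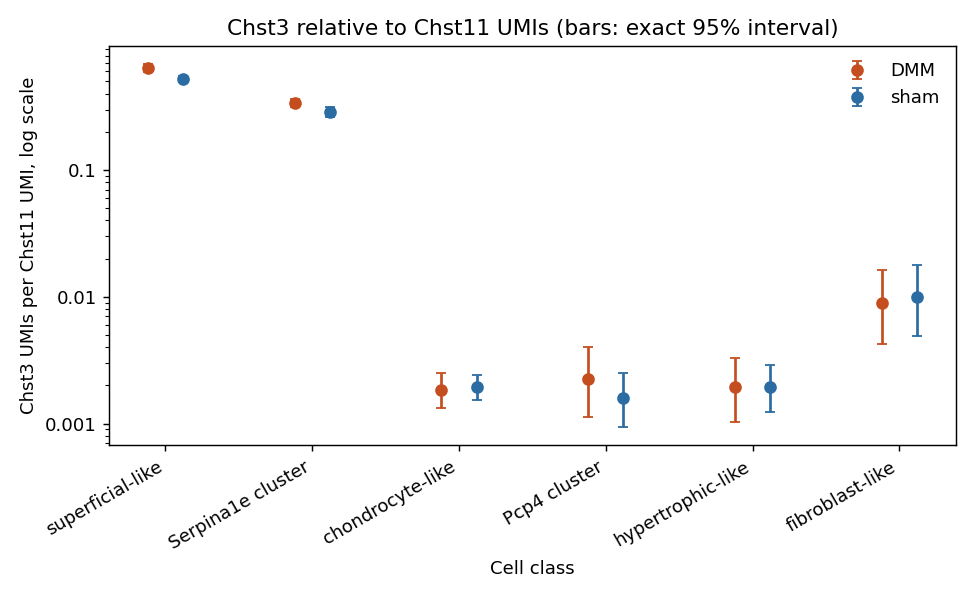
Chst3 UMIs per Chst11 UMI, on a log axis, in 6 cell classes, with DMM left of sham and exact 95% intervals. Both surface clusters lie between 0.288 and 0.640, and chondrocyte-like, Pcp4 and hypertrophic-like cells between 0.00158 and 0.00225. The Pcp4 values rest on 11 Chst3 UMIs in DMM and 18 in sham, and the hypertrophic-like values on 13 and 24.

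Chst1 and Chst5 encode sulfotransferases of keratan sulfate: Chst1 sulfates its galactose, and Chst5 its N-acetylglucosamine, which in mouse is known from the cornea. Chst1 (chromosome 2, 92599707 to 92615250) had 178 CPM in DMM and 134 CPM in sham in the Serpina1e cluster, and 35.1 CPM in DMM and 17.4 CPM in sham in superficial-like cells. Chondrocyte-like cells had 7.71 CPM in DMM and 8.73 CPM in sham, hypertrophic-like cells 9.65 CPM in DMM and 15 CPM in sham, and fibroblast-like cells 2.89 CPM in DMM and 3.72 CPM in sham. In sham the Chst1 intervals of superficial-like and hypertrophic-like cells overlapped. The Serpina1e cluster stood 5.07-fold [4.40, 5.87] above superficial-like cells in DMM and 7.69-fold [6.39, 9.31] in sham. Chst5 (chromosome 8, 111889136 to 111910447) had 220 CPM in DMM and 185 CPM in sham in the Serpina1e cluster and 74.6 CPM in DMM and 58.8 CPM in sham in superficial-like cells. Chondrocyte-like cells had 6.32 CPM in DMM and 4.99 CPM in sham. A UMI of Chst5 was found in 71.9% of Serpina1e cluster cells in DMM and 73.1% in sham (medians of 8249 and 9193 UMIs), against 0.789% of erythroid-like cells in DMM and 0.672% in sham. Fibroblast-like cells were below that, at 0.522% in DMM and 0.457% in sham, so their Chst5 is read as background. Chst3 thus ran opposite to Chst1 and Chst5 between the surface clusters. The Serpina1e cluster held 0.427 [0.392, 0.464] of the superficial-like Chst3 level in DMM and 0.370 [0.338, 0.405] in sham. Its Chst5 was 2.95-fold [2.66, 3.27] that of superficial-like cells in DMM and 3.14-fold [2.81, 3.50] in sham.

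Papss2 (chromosome 19, 32595790 to 32667187) encodes the PAPS synthase that makes the sulfate donor, and its loss causes the short-limbed brachymorphic mouse. Chondrocyte-like cells had 1272 CPM in DMM and 1343 CPM in sham, the Pcp4 cluster 1066 CPM in DMM and 1201 CPM in sham and hypertrophic-like cells 956 CPM in DMM and 1125 CPM in sham. Superficial-like cells (416 CPM in DMM, 475 CPM in sham) and the Serpina1e cluster (396 CPM in DMM, 461 CPM in sham) overlapped in each library. Fibroblast-like cells had 56.3 CPM in DMM and 63.8 CPM in sham, and 29.0% of them carried a UMI in DMM and 31.7% in sham, against 5.98% of erythroid-like cells in DMM and 5.65% in sham. The chondrocyte-like level was 22.6-fold [20.7, 24.6] that of fibroblast-like cells in DMM and 21.1-fold [19.5, 22.8] in sham.

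Counted by the rule of 2-fold in both libraries, superficial-like over chondrocyte-like cells gave 4 of 10 genes higher (Csgalnact2, Chst12, Chst3 and Chst5; 11.4% of 13320 genes were called higher) and 3 lower (Xylt1, Chst11 and Papss2; 16.0% were called lower). Of the remainder, Chst1 was 4.55-fold [3.56, 5.87] higher in DMM but 1.99-fold [1.56, 2.53] in sham, just outside the rule, and Chsy1 was 2.14-fold in DMM and 1.49-fold in sham. Hypertrophic-like over chondrocyte-like cells gave none of 10 in either direction, with 2.45% of all genes called higher and 5.21% lower. Chsy1 came nearest, at 1.81-fold [1.53, 2.15] in DMM and 2.04-fold [1.81, 2.31] in sham.

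Set against fibroblast-like cells, superficial-like cells had 8 of 10 genes higher and none lower (10.6% of all genes higher, 17.4% lower), all but Xylt1 and Chsy1. Xylt1 was 2.21-fold [2.11, 2.31] higher in DMM and 1.91-fold [1.84, 1.98] in sham. Chondrocyte-like over fibroblast-like cells gave 7 of 10 higher and none lower (17.9% of all genes higher, 20.9% lower), without Csgalnact2, Chsy1 and Chst12. The ratio was 15.7 [14.8, 16.7] in DMM and 20.0 [18.8, 21.2] in sham for Chst11, and 6.20 [5.98, 6.44] in DMM and 5.93 [5.76, 6.11] in sham for Xylt1. Of the called genes, Chst3 and Chst5 were at background in fibroblast-like cells.

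In the pairs with the unnamed clusters, chosen after their values were seen, the Serpina1e cluster over superficial-like cells gave 2 of 10 higher (Chst1 and Chst5; 3.67% of all genes) and 2 lower (Csgalnact1 and Chst3; 3.03%). The Serpina1e cluster over chondrocyte-like cells gave 5 of 10 higher (Csgalnact2, Chst12, Chst3, Chst1 and Chst5; 12.2% of all genes) and 4 lower (Xylt1, Csgalnact1, Chst11 and Papss2; 15.4%). Between the Pcp4 cluster and chondrocyte-like cells none of 10 was called, with 2.60% of all genes higher and 2.48% lower, and Csgalnact1 was 1.44-fold [1.36, 1.53] in DMM and 1.47-fold [1.41, 1.53] in sham.

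Outside the 6 classes, Chst1 stood above its superficial-like level in both libraries in a pair of further clusters. An unnamed cluster led by Msmp, Gdf6 and Wif1 held Chst1 at 121 CPM in DMM and 50.2 CPM in sham, Chst5 at 57.7 CPM in DMM and 36.5 CPM in sham and Chst3 at 66.7 CPM in DMM and 68.5 CPM in sham. A tendon or ligament-like cluster led by Npy, Angptl7 and Fgf9 held Chst1 at 94.1 CPM in DMM and 95.4 CPM in sham, but Chst3 at only 21.3 CPM in DMM and 24.6 CPM in sham. Csgalnact2 in the cluster led by Msmp stood at 252 CPM in DMM and 324 CPM in sham, near its superficial-like level. Chst12 was highest in an unnamed cluster led by Wfdc2 in DMM (91.4 CPM) and in the cluster led by Npy in sham (81.7 CPM). Chsy1 was highest in marrow stromal-like cells (104 CPM in DMM, 105 CPM in sham) and in osteoblast-like cells (79.2 CPM in DMM, 109 CPM in sham).

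**Figure D3:**
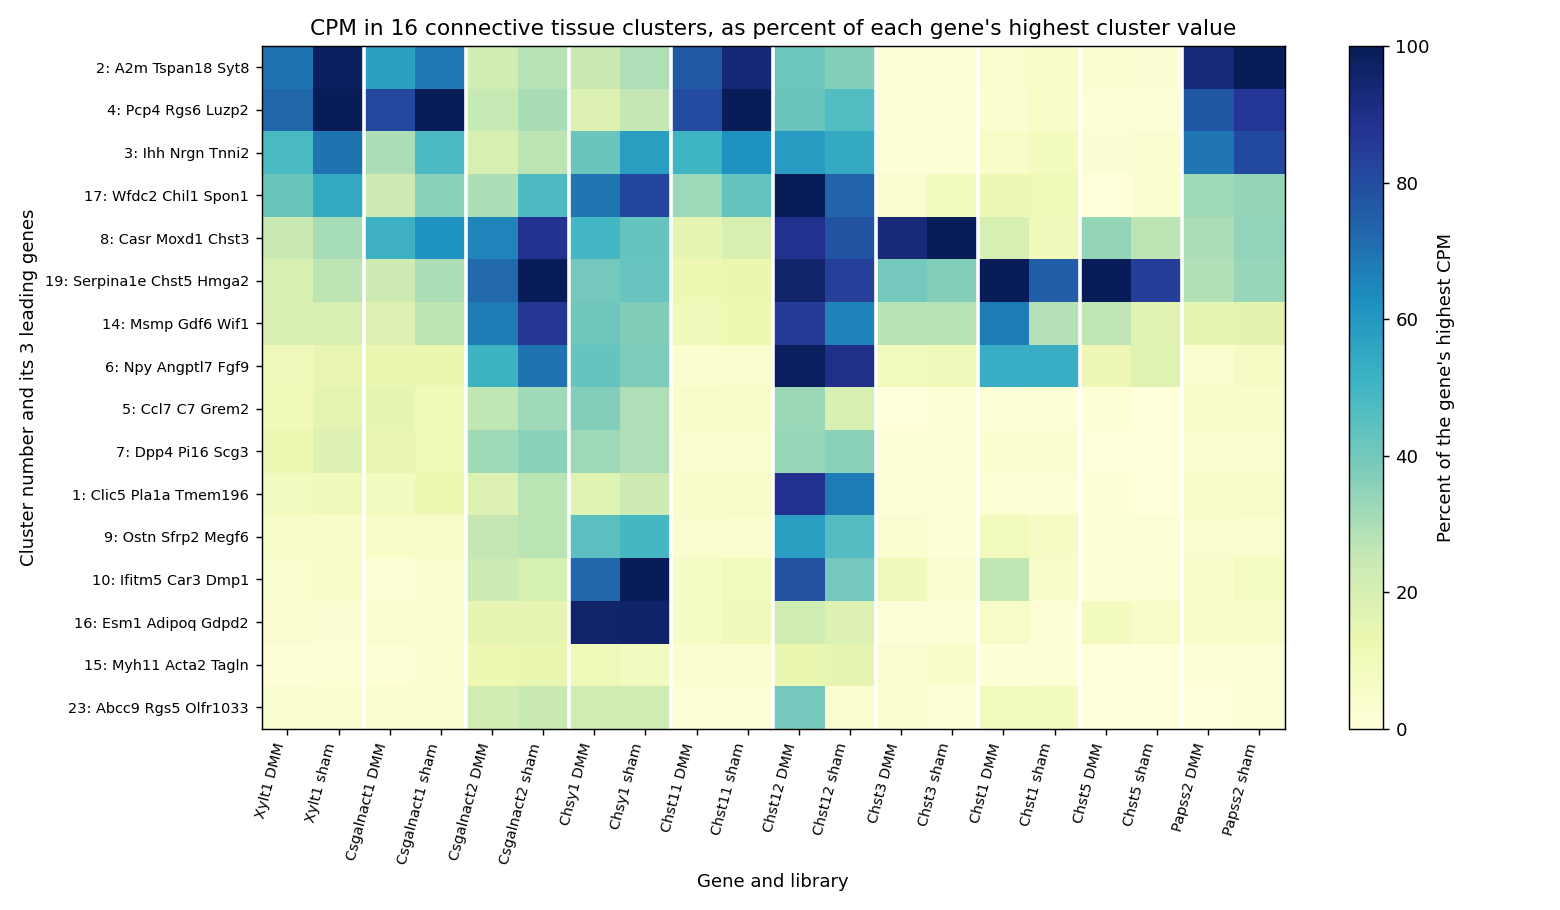
CPM of each gene in 16 connective tissue clusters with at least 50 cells per library, as percent of that gene's highest value over clusters and libraries, with DMM left of sham. Xylt1, Chst11 and Papss2 are darkest in the clusters led by A2m, Pcp4 and Ihh, Chst3 in the cluster led by Casr, and Chst1 and Chst5 in the cluster led by Serpina1e.

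Over those 16 clusters, which share libraries and depth differences, the gene most like Papss2 among 5932 genes was Slc26a2, the sulfate transporter of the plasma membrane whose loss causes chondrodysplasias in humans (Pearson r 0.981 of log2 CPM). Slc26a2 was also most like Chst11 (r 0.970). Xylt1 and Csgalnact1 were second most like each other (r 0.953), after Sobp for Xylt1 and Rcan1 for Csgalnact1. Csgalnact2 was most like Slc38a1 (r 0.968), Chst12 like Ctsh (0.932), Chst3 like Cenpp (0.929), Chst5 like Nxph4 (0.927), Chst1 like Mcm6 (0.899) and Chsy1 like Nedd9 (0.831). These values describe likeness over clusters and were not tested.

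Between DMM and sham most of the 10 genes differed by less than 1.5-fold in each class. A gene was called where its ratio was at least 1.5-fold with an interval without 1. In superficial-like cells 1 of 10 genes was called, Chst1, which was 2.02-fold [1.62, 2.53] higher in DMM (2.76% of 10060 genes were called higher and 15.9% lower). The Serpina1e cluster gave none of 10 in either direction (3.45% of genes higher, 9.05% lower), nor did chondrocyte-like cells (1.51% higher, 8.89% lower). In the Pcp4 cluster 1 of 8 genes tested was called, Chst1, lower in DMM (1.86% higher, 11.0% lower). Hypertrophic-like cells gave 2 of 9 lower, Csgalnact1 and Chst1 (1.85% higher, 12.5% lower), and fibroblast-like cells none of 8 (7.27% higher, 9.38% lower). None of these counts is read as particular to the enzyme genes. Among erythroid-like cells Chst12 was called higher, on 58 UMIs in DMM and 37 in sham, and no other enzyme gene was called (1.70% of all genes higher, 6.61% lower).

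**Figure D4:**
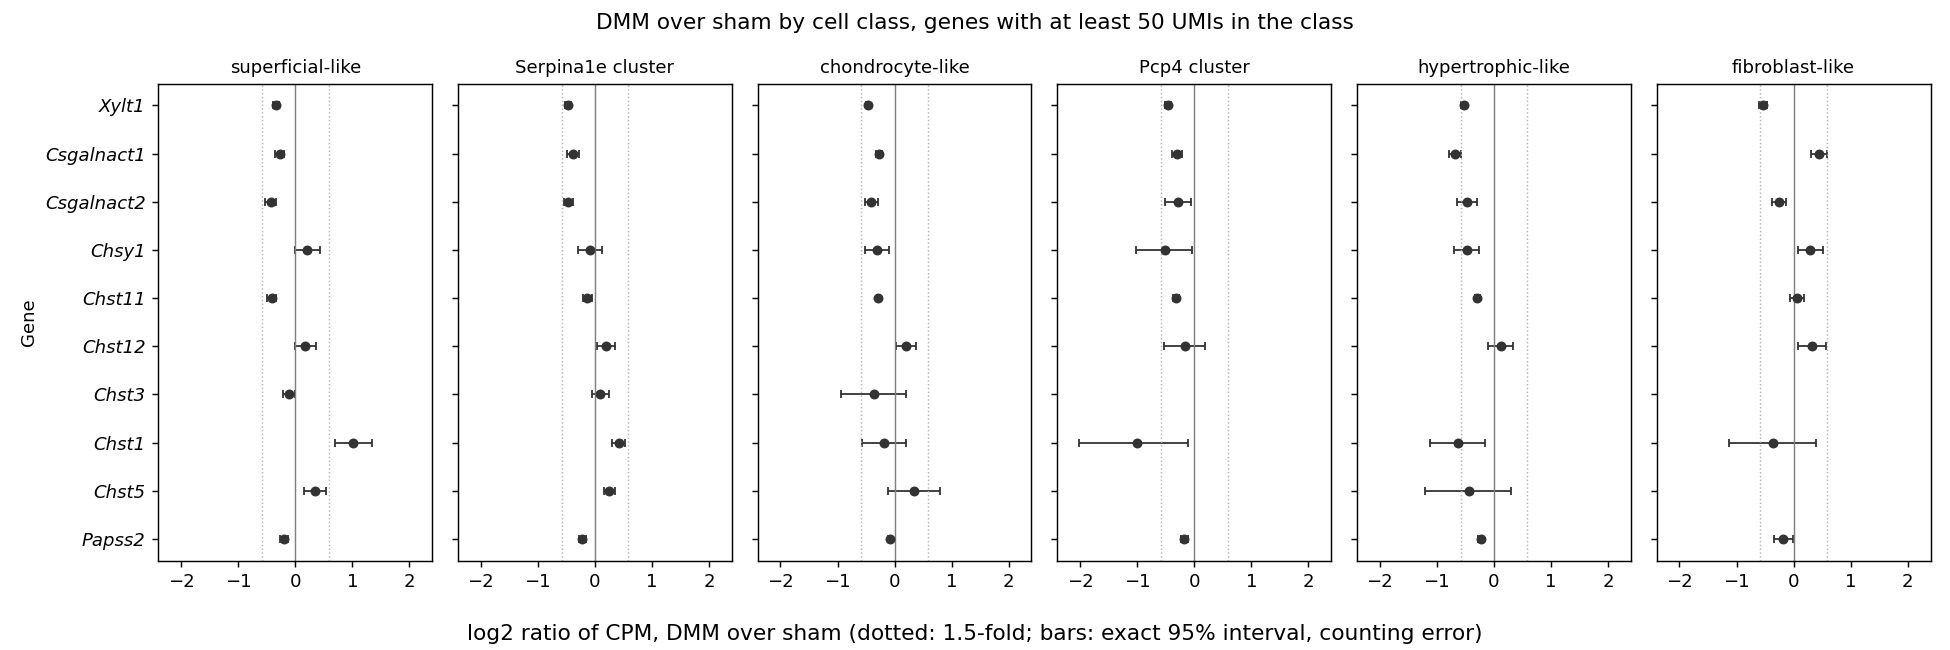
Log2 ratio of CPM, DMM over sham, for each enzyme gene with at least 50 UMIs in the class, in 6 cell classes, with exact 95% intervals for counting error and dotted lines at 1.5-fold. Chst1 lies at 1.02 in superficial-like cells, at -1.01 in the Pcp4 cluster and at -0.63 in hypertrophic-like cells, and Xylt1 lies between -0.33 and -0.54 in all 6 classes.

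Chst1 in superficial-like cells rested on 217 UMIs in DMM and 129 in sham. A UMI was found in 15.4% [12.8, 18.2] of these cells in DMM and 8.24% [6.55, 10.2] in sham, and with every cell thinned to 2000 UMIs in 5.84% of 719 cells in DMM and 2.09% of 911 in sham, against 0.902% of erythroid-like cells in DMM and 0.471% in sham unthinned. The cell with most Chst1 held 5.53% of its UMIs in DMM and 9.30% in sham. Since the Serpina1e cluster has more Chst1, its 9 leading genes other than Chst5 were summed in superficial-like cells, and they came to 16212 CPM in DMM and 12615 CPM in sham, with 6 of 9 higher in DMM. Most of that sum was Ecrg4, at 14164 CPM in DMM and 10790 CPM in sham, whereas Hmga2, Col10a1 and Sbspon were at 0.627, 0.814 and 0.811 of sham. Their part in the Chst1 ratio was not tested. In the Serpina1e cluster itself Chst1 was 1.34-fold [1.23, 1.45] and Chst5 1.19-fold [1.11, 1.28] of sham, under the 1.5-fold rule, and in superficial-like cells Chst5 was 1.27-fold [1.11, 1.45]. The lower calls of Chst1 were made on few UMIs: the ratio was 0.496 [0.247, 0.929] on 13 UMIs in DMM and 49 in sham in the Pcp4 cluster, and 0.645 [0.458, 0.896] on 53 in DMM and 124 in sham in hypertrophic-like cells.

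Csgalnact1 in hypertrophic-like cells stood at 208 CPM in DMM and 333 CPM in sham, a ratio of 0.625 [0.583, 0.670]. It was below 1 in the other cartilage classes too, between 0.767 and 0.829, but at 1.36 [1.23, 1.49] in fibroblast-like cells. Xylt1 was at 0.688 to 0.795 of sham in all 6 classes without reaching the rule, with the lowest value in fibroblast-like cells (0.688 [0.658, 0.721]) and 0.692 [0.673, 0.711] in hypertrophic-like cells. Csgalnact2 was at 0.723 to 0.836 and Papss2 at 0.85 to 0.947 of sham. Erythroid-like cells showed Xylt1 at 0.782 [0.685, 0.891] and Csgalnact2 at 0.756 [0.651, 0.876], so both were below 1 there as well.

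The median log2 ratio of the genes tested was -0.15 for the enzyme genes and -0.20 for all genes in superficial-like cells, -0.11 and -0.09 in the Serpina1e cluster, -0.28 and -0.16 in chondrocyte-like cells, -0.31 and -0.18 in the Pcp4 cluster, -0.47 and -0.18 in hypertrophic-like cells and -0.06 and -0.05 in fibroblast-like cells. In every class the median of all genes was below 0 under CPM. With median-of-ratios scaling, the shares called higher and lower were 8.97% and 5.92% in superficial-like cells, 5.94% and 5.58% in the Serpina1e cluster, 4.31% and 3.83% in chondrocyte-like cells, 6.19% and 4.77% in the Pcp4 cluster, 6.42% and 5.32% in hypertrophic-like cells and 9.06% and 7.94% in fibroblast-like cells. Under that scaling Xylt1 and Csgalnact2 stayed below 1 in all 6 classes, whereas Papss2 turned to a log2 ratio of 0.01 in superficial-like cells, 0.08 in chondrocyte-like cells and 0.01 in the Pcp4 cluster, and Csgalnact1 in hypertrophic-like cells was at -0.50, under 1.5-fold. The lower calls of Chst1 also ended under that scaling. In the Pcp4 cluster Chst1 was at -0.83, where the fold stayed past the rule but the interval held 1. In hypertrophic-like cells it was at -0.45, under 1.5-fold. In superficial-like cells the Chst1 log2 ratio stayed at 0.69 or above over the alternatives.

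Long genes were lower in DMM across the table. The log2 ratio of all genes decreased with gene span in each class, with Spearman rho between -0.416 in erythroid-like cells (10144 genes) and -0.513 in hypertrophic-like cells (10079 genes), given as a description since genes are not independent replicates. In hypertrophic-like cells, genes over 200 kb had a median log2 ratio of -0.49 and genes under 20 kb one of 0.08. Csgalnact1 spans 378 kb, Xylt1 293 kb and Chst11 210 kb, while Chst12 spans 20.2 kb and Chst1 15.5 kb. With that trend removed, Csgalnact1 in hypertrophic-like cells was at -0.19 and no longer called. Xylt1 then stood between -0.19 and -0.02 in 5 classes and at 0.15 in superficial-like cells, and Chst11 between 0.07 and 0.37 in all 6. Chst1 was then at 1.08 in superficial-like cells, -0.95 in the Pcp4 cluster and -0.58 in hypertrophic-like cells, the last just under 1.5-fold, so neither hypertrophic-like call held.

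Of the other chain polymerases, Chsy3 followed the chondrocyte genes over classes and Chpf and Chpf2 were not called between superficial-like and chondrocyte-like cells. Chsy3, a further chondroitin synthase, stood at 1167 CPM in DMM and 1545 CPM in sham in chondrocyte-like cells and 1597 CPM in DMM and 2048 CPM in sham in the Pcp4 cluster, against 128 CPM in DMM and 161 CPM in sham in superficial-like cells and 80.8 CPM in DMM and 128 CPM in sham in fibroblast-like cells. Between DMM and sham, none of 3 polymerase genes was called higher in any class, and 1 of 3 was lower in the Serpina1e cluster (Chsy3), the Pcp4 cluster (Chpf2) and fibroblast-like cells (Chsy3, ratio 0.633 [0.578, 0.692]). Of the linker enzymes, 1 of 5 tested was higher in DMM in the Serpina1e cluster, B3galt6 (galactosyltransferase II, 1.59-fold [1.22, 2.10]), and none was called in the other 5 classes. Of all genes, 1.51% to 7.27% were called higher in DMM over the classes and 8.89% to 15.9% lower. Fam20b, the xylose kinase, was 2.46-fold higher in superficial-like than in fibroblast-like cells in DMM and 2.72-fold in sham.

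Most of the remaining enzymes of chondroitin and dermatan sulfation were lower in chondrocyte-like than in fibroblast-like cells. Chst14, the dermatan 4-O-sulfotransferase, had 1.15 CPM in DMM and 1.70 CPM in sham in chondrocyte-like cells against 11.1 CPM in DMM and 11.1 CPM in sham in fibroblast-like cells, and 5 of 6 genes tested were lower in chondrocyte-like than in fibroblast-like cells (Chst14, Chst7, Dse, Dsel and Ust; 20.9% of all genes were lower). Chst7, another chondroitin 6-O-sulfotransferase, did not follow Chst3, with 0.324 CPM in DMM and 0.673 CPM in sham in superficial-like cells and 5.07 CPM in DMM and 7.34 CPM in sham in fibroblast-like cells. Between DMM and sham, Dsel (an epimerase of dermatan sulfate) was lower in the superficial-like, Serpina1e, chondrocyte-like and hypertrophic-like classes, with 8.37 CPM in DMM and 16.5 CPM in sham in hypertrophic-like cells. Over the 6 classes, 8.89% to 15.9% of all genes were called lower in DMM. The median log2 ratio of this list lay between -0.27 and -0.61 over the 6 classes. It gave no gene higher and 1, 2, 1, 0, 2 and 0 lower in the superficial-like, Serpina1e, chondrocyte-like, Pcp4, hypertrophic-like and fibroblast-like classes, with Chst15 in the Serpina1e cluster and Ust in hypertrophic-like cells beside Dsel.

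Of 7 other keratan sulfate genes tested, none was higher in superficial-like than in chondrocyte-like cells (11.4% of all genes) and 3 were lower (B4galt1, B4galt4 and St3gal1; 16.0% of all genes). In the Serpina1e cluster, Fut8, a fucosyltransferase, was 2.46-fold [2.21, 2.73] higher than in chondrocyte-like cells in DMM and 2.17-fold [1.99, 2.37] in sham. B4galt1, a galactosyltransferase, was 2.48-fold [2.06, 3.00] higher there than in superficial-like cells in DMM and 2.30-fold [1.96, 2.72] in sham. Chst2, another N-acetylglucosamine 6-O-sulfotransferase, was at 1.29 CPM in DMM and 1.08 CPM in sham in superficial-like cells and 14 CPM in DMM and 11.1 CPM in sham in fibroblast-like cells. Between DMM and sham, calls were 1 lower in the Pcp4 cluster (Fut8), 1 lower in hypertrophic-like cells (B4galt5), and in fibroblast-like cells 1 higher (B4galt4) and 2 lower (B4galt5, ratio 0.495 [0.450, 0.545], and St3gal1). The other 3 classes gave none. Over the classes, 1.51% to 7.27% of all genes were called higher in DMM and 8.89% to 15.9% lower.

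In the supply of donors, Slc26a2 had 236 CPM in DMM and 333 CPM in sham in chondrocyte-like cells, 94.5 CPM in DMM and 117 CPM in sham in superficial-like cells and 24.8 CPM in DMM and 24.1 CPM in sham in fibroblast-like cells. It was called lower in DMM in the Pcp4 cluster, with 160 CPM in DMM and 252 CPM in sham. Slc35b2, which carries PAPS into the Golgi, was higher in DMM in superficial-like cells (47.4 CPM in DMM, 31.2 CPM in sham) and in fibroblast-like cells (38.4 CPM in DMM, 22.4 CPM in sham), and Ugdh, which makes UDP-glucuronic acid, was lower in fibroblast-like cells (898 CPM in DMM, 1829 CPM in sham). No other gene of the list was called, and its medians lay between -0.11 and -0.17. Over the classes, 1.51% to 7.27% of all genes were called higher in DMM and 8.89% to 15.9% lower.

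Among the genes of breakdown, Arsb, the lysosomal 4-sulfatase of N-acetylgalactosamine, was lower in DMM in the superficial-like, Serpina1e, Pcp4 and hypertrophic-like classes, with 26.7 CPM in DMM and 45.2 CPM in sham in superficial-like cells. Cemip, a hyaluronan-degrading protein, was lower in the superficial-like, Serpina1e and hypertrophic-like classes (132 CPM in DMM, 254 CPM in sham in the last) but higher in fibroblast-like cells (44.4 CPM in DMM, 21.7 CPM in sham), where Glb1 and Hyal1 were also higher. Chondrocyte-like cells gave no call among 11 genes tested. Of all genes, 1.51% to 7.27% were called higher in DMM over the classes and 8.89% to 15.9% lower.

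For heparan sulfate, Sulf1, which removes 6-O-sulfate at the cell surface, was lower in DMM in the chondrocyte-like, Serpina1e and Pcp4 classes, with 5.25 CPM in DMM and 12.5 CPM in sham in chondrocyte-like cells. Sulf2 was lower in chondrocyte-like cells, Glce and Hs2st1 in superficial-like cells and Extl2 in hypertrophic-like cells. Hs3st1 was higher in the Serpina1e cluster, and fibroblast-like cells gave none. Of all genes, 1.51% to 7.27% were called higher in DMM and 8.89% to 15.9% lower, depending on the class. Over classes, 4 of 16 genes were higher and 6 lower in superficial-like than in chondrocyte-like cells (11.4% of all genes higher, 16.0% lower), and Extl1 had 32.4 CPM in DMM and 30.3 CPM in sham in chondrocyte-like cells against 0.310 CPM in DMM and 0.503 CPM in sham in fibroblast-like cells.

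Among the core proteins that carry these chains, Dcn and Lum were called higher in DMM in superficial-like cells, 2 of 11 tested. In that class 2.76% of all genes were called higher and 15.9% lower. Lum, which carries keratan sulfate, had 222 CPM in DMM and 72.7 CPM in sham in superficial-like cells, 3.06-fold [2.77, 3.38] higher, and was also higher in the Serpina1e cluster and in fibroblast-like cells. Erythroid-like cells showed Lum at 30.5 CPM in DMM and 12.2 CPM in sham, and the part of free RNA in the surface values was not tested. Dcn, which carries 1 chondroitin or dermatan chain, had 8745 CPM in DMM and 4269 CPM in sham in superficial-like cells. Acan was not called in any cartilage class, with 3868 CPM in DMM and 4020 CPM in sham in chondrocyte-like cells. Fibroblast-like cells gave 6 of 13 higher (Acan, Bgn, Fmod, Lum, Kera and Prelp) and 2 lower (Vcan and Col9a2). Of all genes, 7.27% were higher and 9.38% lower there. Fmod stood at 452 CPM in DMM and 79.1 CPM in sham. The 6 tendon or ligament markers summed to 1260 CPM in DMM and 410 CPM in sham in this class. Fmod and Kera are among those markers, so the sum partly repeats these calls. Vcan and the hyaluronan receptor Cd44 were lower in chondrocyte-like cells, Cd44 in the Pcp4 and hypertrophic-like classes, Omd in the Pcp4 cluster and Vcan in the Serpina1e cluster.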

How the data were processed

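The assay was single-cell RNA sequencing of mouse knee joint cartilage, with 1 DMM and 1 sham library. The deposited values are counts of unique molecular identifiers (UMIs) per gene and barcode, with no normalisation. Cell Ranger 7.1.0 wrote them, per the file headers. The submitters' processing notes name mm10, STAR, HTSeq, DESeq2, Seurat and a different Cell Ranger version, 3.0.1. A bulk table was not used, because its 6 per-sample columns match no sample by name.

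Cells under 500 genes or above 10% mitochondrial UMIs were dropped, as were Scrublet doublets. Counts per cell were brought to 10000, logged, reduced to 2000 variable genes without the 10 enzyme genes and the 79 genes of 8 pathway lists, then to 30 principal components, and clustered (15 neighbours, Leiden resolution 1.0, seed 1). Each of 19 marker lists was scored in a cluster by its mean log2 fold, and the highest score gave the name. A name needed a score of 0.75, 3 markers at a log2 fold of 1.0 and 10 CPM, and no other list ahead among its top 10 genes. Clusters with a connective tissue name were kept as connective, with any unnamed cluster in which 50% or more of the cells had Serpinh1.

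For each class, the UMIs of a library were added up and scaled to CPM, with Poisson 95% intervals. Ratios carry exact conditional binomial intervals and shares of cells Clopper-Pearson intervals. All of them cover counting error only. No p-value was computed, since each group had 1 library. Between DMM and sham, a gene was tested with at least 50 UMIs in the class and called at 1.5-fold with an interval without 1. Between classes it was called at 2-fold in the same direction in both libraries, with both intervals without 1. Classes needed 50 cells per library. The code was tested on simulated counts with known ratios.

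All 10 enzyme genes are named. From each pathway list the rule gave up to 3 genes called between DMM and sham in the superficial-like, chondrocyte-like, hypertrophic-like or fibroblast-like class, by distance from 1. It also gave up to 2 genes called between those classes, by the smaller ratio of both libraries. Genes most like a member were the 3 with the highest Pearson r of log2(CPM + 1) over connective tissue clusters. The members, lists and rules were chosen with earlier results of these data known. The Serpina1e and Pcp4 clusters, the class pairs that hold them and any further gene named were chosen after their values were seen.

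Gene positions came from GENCODE vM21 (GRCm38), which gave a span for 99.6% of the 32285 features. Promoter sequences came from RefSeq (GRCm38.p6), of which 5 of the 10 genes had 250 bases outside the annotated gene. Alternatives covered filters, doublets, clustering, scaling, thinning to 2000 UMIs, thresholds, the trend on gene span and the largest cell. Software was scanpy 1.11.5 with igraph 0.11.9, scikit-learn 1.9.0, pandas 2.3.3, scipy 1.17.1, numpy 2.4.6, matplotlib 3.10.9 and statsmodels 0.14.6 on Python 3.11.15.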

Additional observations from a re-analysis of the deposited data

Results flagged for a closer look

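Chst1 moved in opposite directions between DMM and sham in different cell classes. Its log2 ratio was 1.02 in superficial-like cells, -1.01 in the Pcp4 cluster and -0.63 in hypertrophic-like cells. The difference between classes was not tested, because each group had 1 library. The Pcp4 value rests on 13 UMIs in DMM and 49 in sham. Neither lower value was called under median-of-ratios scaling.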

How the results depend on the processing

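The counts of enzyme genes called between DMM and sham moved as follows. At most 5% mitochondrial UMIs gave 1 in chondrocyte-like and 1 in hypertrophic-like cells. Hypertrophic-like cells gave 0 with doublets kept, 0 under median-of-ratios scaling, 0 at 2-fold, and 1 at Leiden resolution 1.5, with variable genes centred by library, without the 50 most abundant genes, thinned to 2000 UMIs or with at least 200 UMIs. The Pcp4 cluster gave 0 under median-of-ratios scaling, with at least 200 UMIs or with pathway genes allowed among the variable genes, which gave 1 in chondrocyte-like cells. Thinning gave 1 in fibroblast-like cells. At the lowest fold threshold tried the counts were 5 superficial-like, 4 Serpina1e, 2 chondrocyte-like, 3 Pcp4, 5 hypertrophic-like and 3 fibroblast-like. Between classes, hypertrophic-like over chondrocyte-like cells gave 1 at 5% mitochondrial UMIs, resolution 1.5, pathway genes allowed or 1.5-fold, and the Pcp4 cluster over chondrocyte-like cells 1 at 5%. Chondrocyte-like over fibroblast-like cells gave 4 when thinned. At 4-fold the counts were 3 for superficial-like over chondrocyte-like, 4 for superficial-like over fibroblast-like, 4 for chondrocyte-like over fibroblast-like, 1 for Serpina1e over superficial-like and 4 for Serpina1e over chondrocyte-like cells. The cause of these moves was not tested, beyond fewer UMIs when thinned and the stricter or looser thresholds themselves. The Chst1 log2 ratio kept its sign in superficial-like cells, between 0.69 and 1.86, and in hypertrophic-like cells, between -1.83 and -0.28. No class matched the Pcp4 cluster with doublets kept, at resolution 0.5 or with centring, nor the hypertrophic-like class at 0.5, so they have no value there. Of 21 alternatives, 2 were chosen after seeing the data. No paired analysis was possible because each group has 1 library. One library per group limits every DMM value. Under 50 UMIs of a gene in a class, no DMM over sham ratio was read. The Chst3 per Chst11 values had no such limit.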

Other observations

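Outside cartilage, Chst1 in osteoblast-like cells stood at 46.1 CPM in DMM (153 UMIs, 474 cells) and 7.99 CPM in sham (18 UMIs, 259 cells). Synovial lining-like cells held Chst12 at 80.7 CPM in DMM and 61.9 CPM in sham, near the level of the surface clusters. An unnamed cluster led by Wfdc2, Chil1 and Spon1 (136 DMM and 180 sham cells) held Xylt1 at 1202 CPM in DMM and 1566 CPM in sham and Chst11 at 782 CPM in DMM and 1032 CPM in sham. No explanation of these values was tested.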
